A study of Mus musculus with 3 samples.

Results

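Basement membranes are thin sheets of matrix that underlie epithelia, and integrins are the receptors through which cells hold on to them. The 39 genes described here encode laminin, collagen IV and nidogen chains, collagen XVIII, fibronectin, dystroglycan, integrin subunits and the integrin adaptors ILK, parvin and PINCH. They were taken as a list of gene symbols that was chosen with earlier results of these data known. Each of the 39 had 1 probe set that the platform annotation assigned to that symbol alone, out of 19938 genes measured in this way. All samples were ureteric bud cells, called ureteric tip in the labels, from CD-1 mouse embryos carrying the transgene Tg(Hoxb7-EGFP)33Cos at 10.5 days post coitum (Theiler stage 18), sex unknown. The Hoxb7 promoter of this transgene makes the duct epithelium and its outgrowth, the bud, fluoresce green. The 3 samples formed 1 group, each with the trypsin-dissociated and sorted cells of 1 bud, and their RNA was amplified in 1 round before hybridisation to an Affymetrix array. There was no other stage, genotype or cell type, so the comparison open to the design was each gene's signal against array background. The labels do not say whether the buds came from separate embryos, and the spread between arrays may be partly technical.

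Laminins are trimers of an α, a β and a γ chain that polymerise into the first layer of a basement membrane. Collagen IV trimers form a second network, nidogens join both, and integrin αβ dimers at the cell surface bind this matrix and connect it through adaptors to actin. In the kidney, outgrowth and branching of the bud require laminin and integrin β1 in the bud epithelium, and the collagen IV chain set changes as the glomerular filter matures.

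Values are deposited signals on a log2 scale, and a gene counted as above background when its mean signal exceeded the background level of the arrays. That level was the 95th percentile of 1035 olfactory receptor probe sets, 5.40, 5.45 and 5.41 log2 on arrays 1, 2 and 3, and the test was limma's one-sided moderated test adjusted over all genes (adjusted p under 0.05). Array medians were 5.47, 5.50 and 5.48 log2. Signals of different probe sets depend on their probes, so no gene's signal is ranked against another's. Of the 39 genes, 24 (61.5%) held 1 identical value on all 3 arrays, as did 51.7% of all genes, and a further 8 were equal on exactly 2 arrays. Such values carry no measured spread, and for identical genes the p-value rests on the background levels and limma's prior rather than on differences between buds. All 12 ureteric bud markers checked were above background, among them Ret, Gfra1, Etv5 and Cxcr4 at 8.41, 8.22, 8.18 and 8.97 log2. Of 8 markers of metanephric mesenchyme, 1 was above background (Cited1), and Six2, Gdnf, Eya1 and Osr1 were not.

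Most genes of the list were above background in the sorted samples. Of 12 endothelial markers 9 (75%) were above background there too, as were 3 of 7 measured erythroid markers (42.9%), beside 53.0% of all genes. Which cells gave the signal of a gene or of a complex was not tested. The count was 29 of 39 (74.4%), beside 53.0% of all genes, and the median of signal minus background was 0.70 log2, beside 0.22 log2 for all genes. Because the list was chosen with earlier results known, these shares are a description and no test of an excess over all genes. At least 1 gene of each role was above background, from laminin chains to the adaptors. The 10 genes not above background were Lama2, Lama3, Lamb3, Col4a3, Col4a6, Nid1, Itga2, Itga7, Itgb3 and Itgb6. A stricter background lowered the count. At the 99th percentile of olfactory receptors 17 of 39 genes (43.6%) were above it, beside 35.3% of all genes, and 10 (25.6%) exceeded a level set by 84 probe sets of hair keratin partners (keratin-associated proteins) and of beta-defensins, beside 21.1%. The latter is called the Krtap and Defb level.

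**Figure D1:**
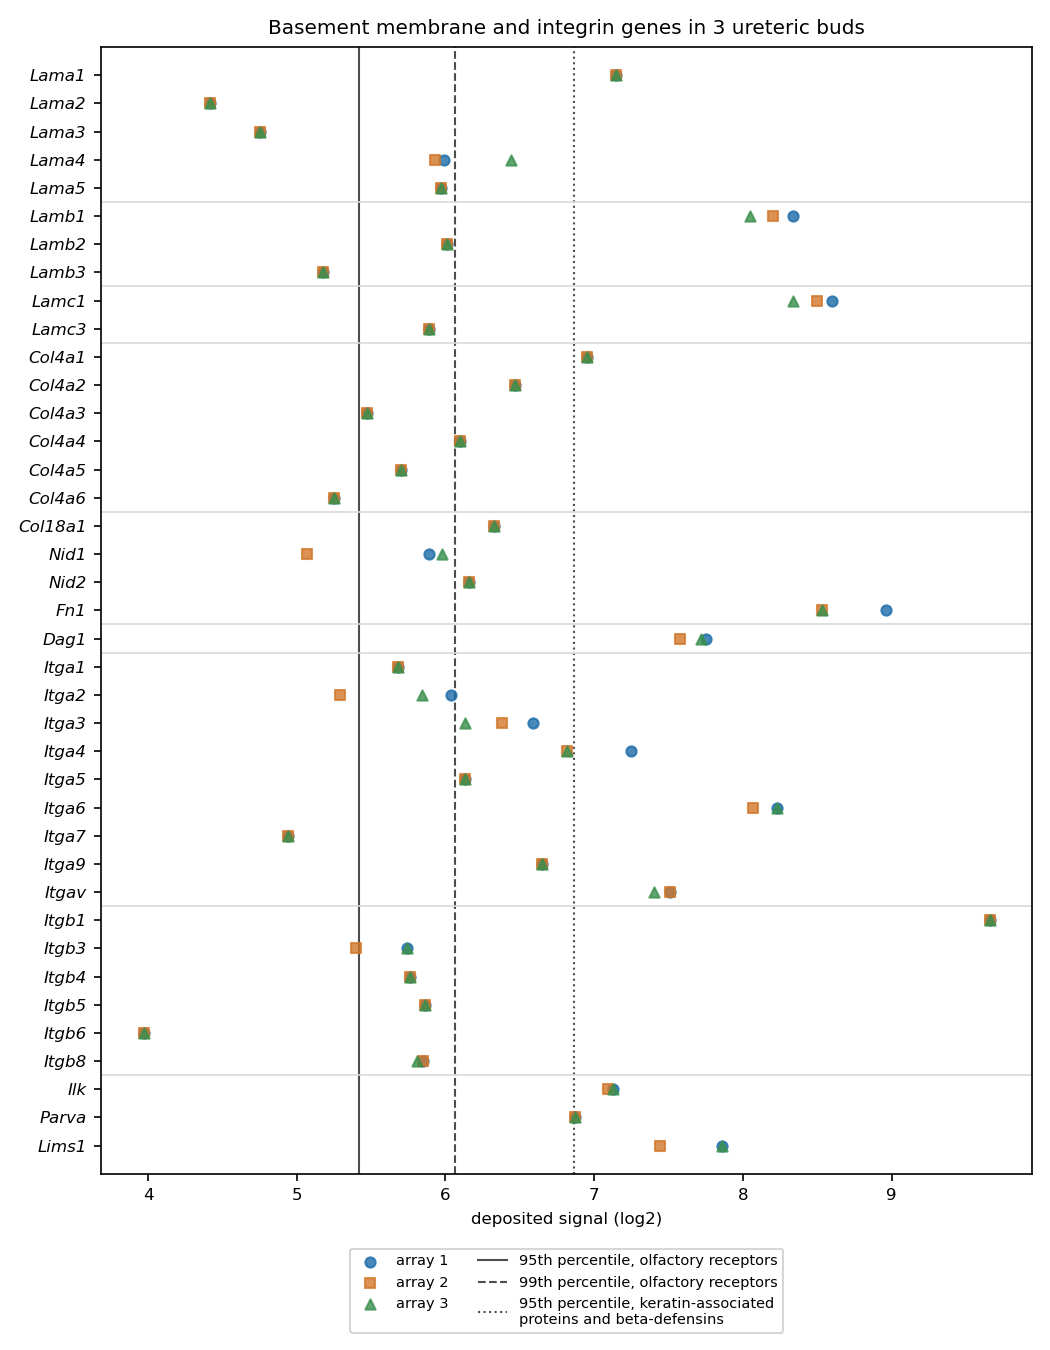
Deposited signal (log2, horizontal axis) of the 39 genes, 1 row per gene in order of role, with a symbol for each of the 3 arrays and vertical lines for 3 background levels averaged over arrays. Itgb1 lies at 9.66 log2 on every array, Itgb6 at 3.97, and Nid1 falls to 5.07 on array 2 from 5.89 and 5.98 on arrays 1 and 3.

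Among laminin α chains, Lama1, the α chain of the earliest embryonic basement membranes, gave 7.15 log2 on each array, 1.73 log2 above background. Lama5, the α chain of many developing and adult epithelia, gave 5.97 log2 on each array, 0.55 log2 above background. Lama4, known mainly from vessels and mesenchyme, gave 5.99, 5.93 and 6.44 log2 on arrays 1, 2 and 3 (6.12 ± 0.28, SD, n = 3), which is 0.70 log2 above background (limma, adjusted p = 0.0063). Array 3 was high for Lama4, and arrays 1 and 2 lay close together. Lama2, the α chain of muscle and nerve, and Lama3, the α chain of skin, gave 4.42 and 4.75 log2 on each array, both under background. The calls of Lama4 and Lama5 were lost at the 99th percentile, where Lama4 stood 0.06 log2 above the level and Lama5 at −0.09 log2.

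Of the β chains, Lamb1, the common embryonic β chain, gave 8.34, 8.20 and 8.05 log2 on arrays 1, 2 and 3 (8.20 ± 0.14, SD, n = 3), 2.78 log2 above background. Lamb2, the β chain of the mature glomerulus and of the neuromuscular junction, gave 6.01 log2 on each array and was above background by 0.59 log2. Lamb3, which joins Lama3 in the laminin of skin, gave 5.18 log2 and was not. Lamc1, the γ chain of most laminins, gave 8.60, 8.50 and 8.34 log2 (8.48 ± 0.13, SD, n = 3), 3.06 log2 above background. Lamb1 and Lamc1 shared an order, with array 1 high and array 3 low, and every array of both lay more than 2 log2 above its background level. Lamc3, a γ chain of restricted distribution, gave 5.89 log2 on each array, 0.48 log2 above background. Lamb2 and Lamc3 fell to −0.05 and −0.17 log2 against the 99th percentile and lost their calls.

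Of 13 laminin trimers examined, 8 had every chain above background. These were laminin-111, laminin-121, laminin-411, laminin-421, laminin-423, laminin-511, laminin-521 and laminin-523, where the digits name the α, β and γ chains. The other 5 contain Lama2 or Lama3. At the 99th percentile, and at the Krtap and Defb level, laminin-111 was the trimer left with all chains above. The count is of transcripts, and assembly of the proteins was not measured.

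**Figure D2:**
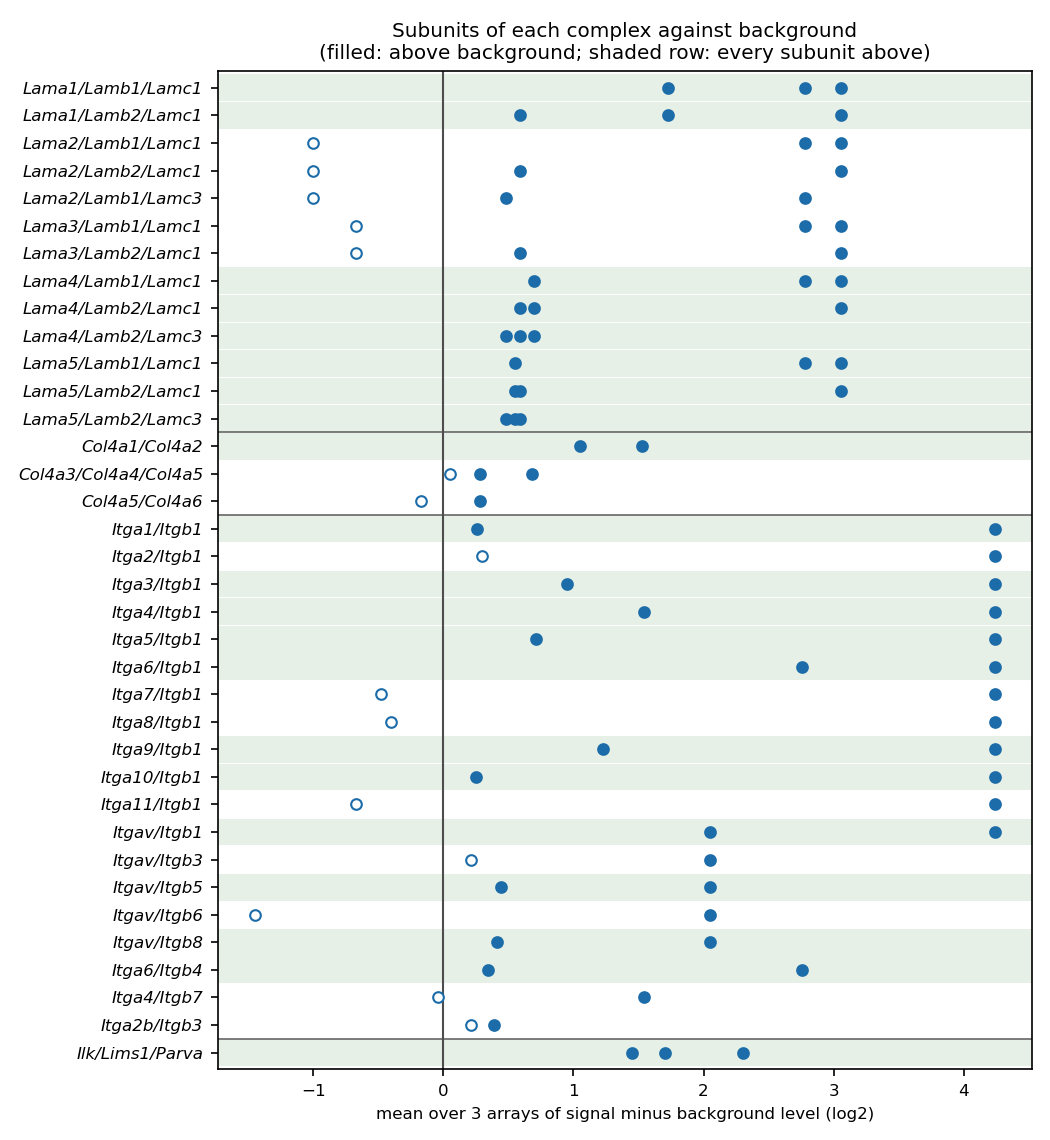
Mean signal minus background level (log2, horizontal axis) for each subunit of the laminin, collagen IV, integrin and ILK complexes, 1 row per complex; filled points are genes above background and shaded rows have every subunit above. All 5 laminin rows that lack shading hold an open point for Lama2 or Lama3, and the Itgb1 point lies at 4.24 log2 in each of its rows.

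The 6 collagen IV genes are arranged in the genome as 3 pairs of direct neighbours. Their products form α1α1α2 trimers, found in nearly all basement membranes, α3α4α5 trimers of the mature glomerular filter, and α5α5α6 trimers of some epithelial and smooth muscle membranes. All 6 genes held 1 value on all 3 arrays. Col4a1 and Col4a2 gave 6.95 and 6.47 log2, 1.53 and 1.05 log2 above background. Col4a4 and Col4a5 gave 6.10 and 5.70 log2, above background by 0.68 and 0.28 log2. Col4a3 at 5.47 log2 stood 0.05 log2 above the level and did not pass the test (limma, adjusted p = 0.0932), and Col4a6 at 5.25 log2 lay under it. The α1α1α2 trimer therefore had all chains above background, and the α3α4α5 and α5α5α6 trimers each missed 1 chain.

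Both missing chains were near the level, and the collagen counts moved with it. At the 90th percentile, or with vomeronasal receptors as background, all 3 trimers had every chain above. Without array 2 Col4a3 passed (limma, adjusted p = 0.014) and 2 trimers were complete. Its difference was then 0.07 log2 in place of 0.05 log2, and its SE 0.007 log2 in place of 0.023 log2. Since its value was identical on all arrays, that SE rests on the background levels and limma's prior. Without array 1 or array 3 Col4a3 did not pass. The same 2 trimers were complete when a gene had only to exceed the level on every array. At the 99th percentile the pair Col4a1 and Col4a2 remained and Col4a4 and Col4a5 were not above background, and at the Krtap and Defb level no collagen IV chain was called.

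The start regions of 2 of the 3 collagen IV pairs are shown, 1 whose members shared a call (Col4a1 and Col4a2) and 1 whose members did not (Col4a5 and Col4a6). That of Col4a3 and Col4a4 is not shown. In RefSeq (build GRCm38.p6) the starts of Col4a1 and Col4a2, which run in opposite directions, lie 21 bases apart. The + strand gene Col4a2 starts at 11312805 and the − strand gene Col4a1 at 11312826, so their first bases overlap. The 30 bases at chr8:11312801-11312830 (+ strand) have in capitals the 22 bases from start to start, which lie in both genes.
Col4a1 and Col4a2 starts: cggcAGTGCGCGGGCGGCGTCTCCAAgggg
The starts of Col4a6 and Col4a5, also on opposite strands, lie 1343 bases apart, and these 2 genes do not overlap there. The 250 bases before each start follow, together with those of Lamb1 and Itgb1, a laminin chain and an integrin subunit above background under all alternatives that tested them. Capitals mark GGGCGG (a GC box) and CCAAT, searched on both strands; they occur in 32.7% and 33.8% of 32851 such windows in the table, and a match is a description of the letters and not a site.
Col4a5 at chrX:141475169-141475418 (+ strand): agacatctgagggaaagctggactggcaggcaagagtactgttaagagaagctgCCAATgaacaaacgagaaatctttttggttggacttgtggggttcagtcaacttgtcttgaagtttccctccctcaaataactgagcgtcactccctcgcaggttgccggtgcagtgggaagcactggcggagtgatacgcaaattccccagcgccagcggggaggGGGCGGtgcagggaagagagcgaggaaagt
Col4a6 at chrX:141474077-141474326 (− strand): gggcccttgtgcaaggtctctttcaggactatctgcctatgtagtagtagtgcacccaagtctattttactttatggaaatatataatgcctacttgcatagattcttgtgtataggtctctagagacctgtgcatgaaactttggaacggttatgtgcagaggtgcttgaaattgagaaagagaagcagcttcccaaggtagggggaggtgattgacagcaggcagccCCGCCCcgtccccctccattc
Lamb1 at chr12:31265043-31265292 (+ strand): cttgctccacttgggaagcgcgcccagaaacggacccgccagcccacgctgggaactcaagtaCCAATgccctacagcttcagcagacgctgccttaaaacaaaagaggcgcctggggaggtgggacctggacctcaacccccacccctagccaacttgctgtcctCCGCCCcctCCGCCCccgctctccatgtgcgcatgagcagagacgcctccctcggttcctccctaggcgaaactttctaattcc
Itgb1 at chr8:128685404-128685653 (+ strand): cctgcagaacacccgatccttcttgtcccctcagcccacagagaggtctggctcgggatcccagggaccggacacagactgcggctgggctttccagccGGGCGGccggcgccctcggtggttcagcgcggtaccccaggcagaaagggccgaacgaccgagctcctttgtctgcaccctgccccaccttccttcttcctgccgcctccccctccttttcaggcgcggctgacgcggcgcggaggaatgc
The Lamb1 window holds 2 GC boxes and 1 CCAAT, the Col4a5 window 1 of each, and the Itgb1 and Col4a6 windows 1 GC box and no CCAAT. G and C made up 62% of the Lamb1 window, 68% of the Itgb1 window, 54% of the Col4a5 window and 47.6% of the Col4a6 window. Promoter windows were found for 26 of the 39 genes.

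Of the remaining matrix genes, Fn1, which encodes fibronectin, gave 8.96, 8.53 and 8.53 log2 on arrays 1, 2 and 3 (8.68 ± 0.25, SD, n = 3) and stood 3.26 log2 above background. Array 1 was high, and arrays 2 and 3 held the same value. Nid2 gave 6.16 log2 on each array, 0.74 log2 above background. Its relative Nid1 gave 5.89, 5.07 and 5.98 log2 (5.65 ± 0.50, SD, n = 3), so that array 2 fell under its background level while arrays 1 and 3 exceeded theirs, and it did not pass (limma, adjusted p = 0.341). Without array 2 Nid1 was above background by 0.53 log2 (limma, adjusted p = 0.00424). Col18a1, the source of endostatin, gave 6.33 log2 on each array, 0.91 log2 above background. Dag1, whose product dystroglycan is a laminin receptor outside the integrin family, gave 7.75, 7.58 and 7.72 log2 (7.68 ± 0.09, SD, n = 3), 2.26 log2 above background.

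Among integrin α subunits, 7 of 9 were above background. Itga6, which pairs with β1 or β4, gave 8.23, 8.07 and 8.23 log2 on arrays 1, 2 and 3 (8.18 ± 0.10, SD, n = 3), 2.76 log2 above background. Itga3, whose product pairs with β1 and is needed for normal branching of the collecting system, gave 6.59, 6.38 and 6.13 log2 (6.37 ± 0.23, SD, n = 3) and stood 0.95 log2 above background (limma, adjusted p = 0.00118). Array 1 was high and array 3 low for Itga3, as for Lamb1 and Lamc1. Itga7, the laminin-binding subunit of muscle, gave 4.94 log2 on each array, under background.

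The collagen-binding subunits Itga1 and Itga2, direct neighbours in the genome, lay near the level. Itga1 gave 5.68 log2 on each array, 0.26 log2 above background, and lost its call without array 1 (limma, adjusted p = 0.0561). The difference was then 0.25 log2, and its SE was 0.129 log2, pooled over all genes, in place of 0.023 log2. Itga2 gave 6.04, 5.29 and 5.84 log2 (5.72 ± 0.39, SD, n = 3) and did not pass (limma, adjusted p = 0.158). Array 2 was low and lay under its background level, and without it Itga2 stood 0.54 log2 above background (limma, adjusted p = 0.0225). Itga2 also passed in the fit with a floor under the spread (limma, adjusted p = 0.00971). That fit gave every gene the same pooled spread, so the SE of Itga2 was 0.116 log2 there and 0.179 log2 as reported.

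The other 4 α subunits, among them those of fibronectin and RGD receptors, were all above background. Itgav, which pairs with several β subunits, gave 7.51, 7.51 and 7.40 log2 (7.47 ± 0.06, SD, n = 3), 2.05 log2 above background. Itga4, a receptor for fibronectin and VCAM-1, gave 7.25, 6.82 and 6.82 log2 (6.96 ± 0.25, SD, n = 3), 1.54 log2 above background. Array 1 was high and arrays 2 and 3 were equal for Itga4, as for Fn1. Itga5, the partner of β1 in the main fibronectin receptor, gave 6.13 log2 on each array, 0.71 log2 above background, and Itga9, which also binds tenascin, gave 6.65 log2 on each array, 1.23 log2 above background.

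Of the 6 β subunits, 4 were above background. Itgb1, the partner of most α subunits, gave 9.66 log2 on each array, 4.24 log2 above background. Itgb5 gave 5.86 log2 on each array and Itgb8, known for activating latent TGF-β with αv, gave 5.85, 5.85 and 5.81 log2, above background by 0.44 and 0.41 log2. Itgb4, the hemidesmosome subunit, gave 5.76 log2 on each array, 0.34 log2 above background. Itgb3 gave 5.74, 5.40 and 5.74 log2 (5.63 ± 0.20, SD, n = 3) and did not pass (limma, adjusted p = 0.0983). Array 2 was low for Itgb3 too, and without it the gene stood 0.34 log2 above background (limma, adjusted p = 0.00101). Arrays 1 and 3 held the same value for Itgb3, so its SE there, 0.007 log2, rests on the background levels and limma's prior. Without array 1 or array 3 Itgb3 did not pass. Itgb6, an epithelial partner of αv, gave 3.97 log2 on each array, under background. At the 99th percentile Itgb1 was the β subunit left above background, with Itgb4, Itgb5 and Itgb8 at −0.31, −0.20 and −0.23 log2.

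Of 14 integrin dimers whose subunits are all in the list, 10 had both subunits above background. They comprised the laminin receptors α3β1, α6β1 and α6β4, the collagen receptor α1β1, the fibronectin receptors α4β1 and α5β1, α9β1, and αv with β1, β5 or β8. The others were α2β1, α7β1, αvβ3 and αvβ6. With subunits from outside the list 11 of 19 dimers were complete, the added one being α10β1, which was lost through Itga10 without array 1 and without array 3, in fits that pooled the spread over all genes. The 19 hold no dimer of Itgal, Itgam, Itgax, Itgad, Itgae or Itgb2, none of which was above background. Itga8, whose product pairs with β1 and is known from the mesenchyme around the bud, gave 5.02 log2 on each array and was not above background, so α8β1 was incomplete. At the 99th percentile 5 dimers were complete (α3β1, α4β1, α6β1, α9β1 and αvβ1), and at the Krtap and Defb level 2 (α6β1 and αvβ1).

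The 3 adaptor genes, whose products form the ILK, PINCH and parvin complex on integrin β tails, were all above background. Ilk, the scaffold, gave 7.13, 7.09 and 7.13 log2 on arrays 1, 2 and 3, 1.70 log2 above background. Parva, the actin-binding partner, gave 6.87 log2 on each array, 1.45 log2 above background. Lims1, which encodes PINCH1, gave 7.86, 7.44 and 7.86 log2 (7.72 ± 0.24, SD, n = 3), 2.30 log2 above background, with array 2 low. At the Krtap and Defb level Parva stood at 0.01 log2 and lost its call.

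In 10 genes the call above background held under all alternatives that tested them, namely Lama1, Lamb1, Lamc1, Fn1, Dag1, Itga6, Itgav, Itgb1, Ilk and Lims1. Lama2, Lama3, Itga7 and Itgb6 were above background under none. The other 25 genes changed call under at least 1 of 13 alternatives, most often with the stricter backgrounds. Laxer levels gave 34 genes at the 90th percentile, beside 63.7% of all genes, and 35 with vomeronasal receptors, beside 65.0%. Leaving out array 1, 2 or 3 gave 28, 33 and 29 genes, beside 48.5%, 52.8% and 48.8% of all genes. A floor under the spread, after which limma pooled the spread over all genes, gave 30 (49.4% of all genes), and a signal over the level on every array, without a model, also 30 (54.0%). The count was 29 after quantile normalization (52.8%), with each gene's brightest probe set (53.4%), which leaves these genes as they were since each has 1 probe set, and without the lowest 25% of probe sets (65.0%), and 12 of 15 genes passed when identical genes were left out (63.1%).

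**Figure D3:**
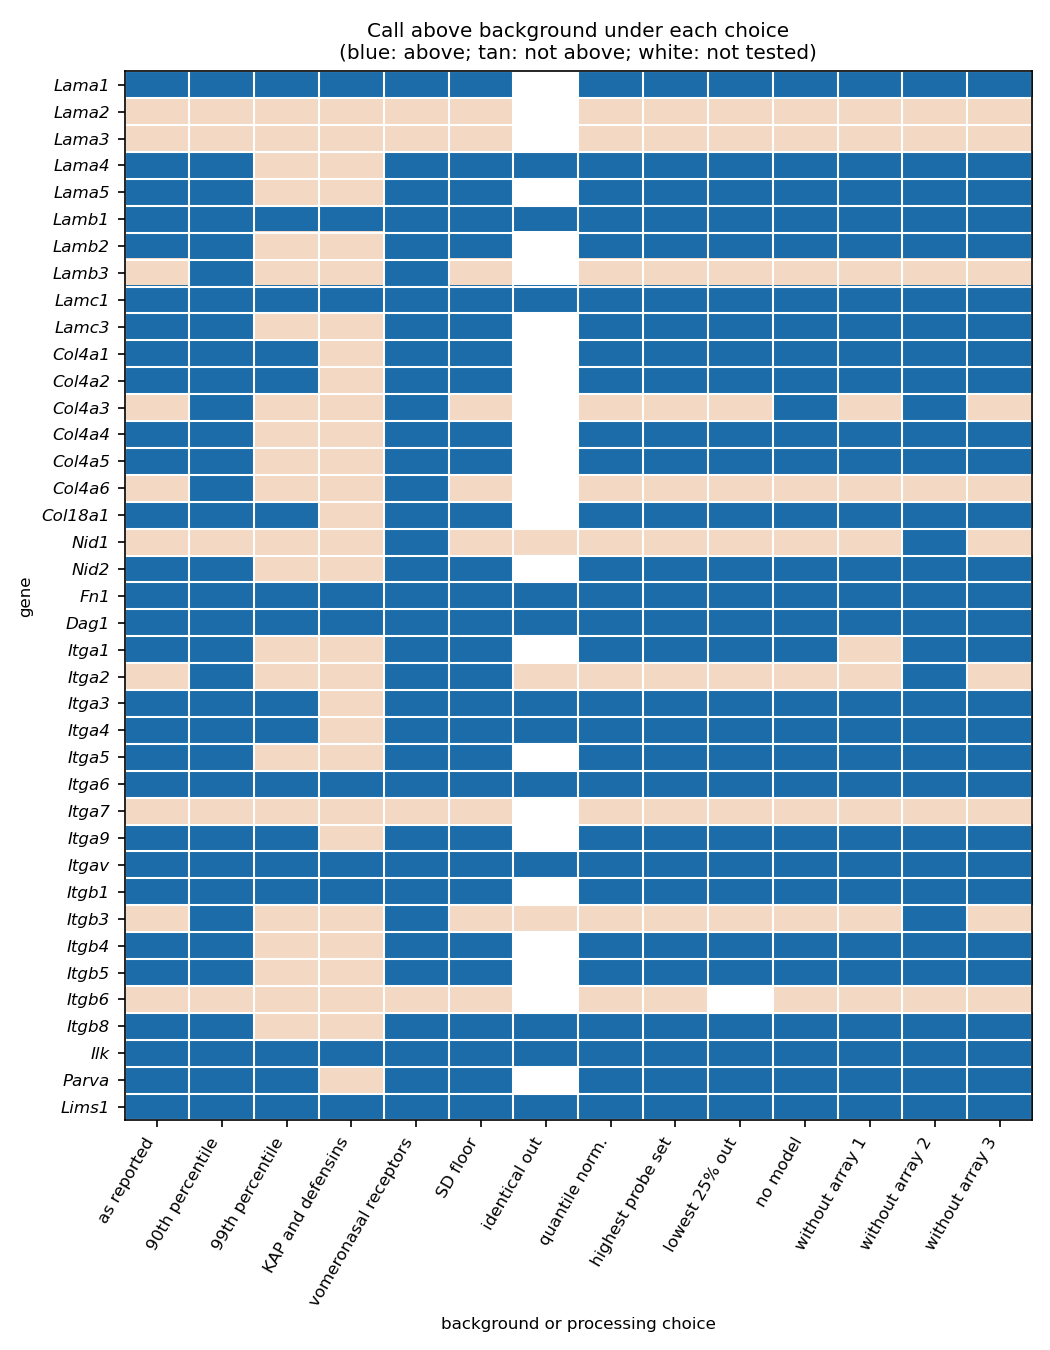
Calls of the 39 genes (rows) under the reported setting and 13 alternatives (columns), with blue for above background, tan for not above and white for not tested; KAP and defensins stands for the Krtap and Defb level. The 99th percentile leaves 17 blue cells and the Krtap and Defb level 10, against 29 as reported, and the rows of Col4a3, Nid1, Itga2 and Itgb3 turn blue without array 2.

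Differences between buds were read from the 15 genes that differed between arrays. The largest range was 0.91 log2 (Nid1), followed by Itga2 at 0.76 and Lama4 at 0.51 log2. In none of the 39 did the highest and lowest arrays differ by more than 1 log2. Only 2.37% of all genes did, and 24 of the 39 held 1 value on all arrays, so that count does not set the list apart. The median SD of the 15 genes that differed between arrays was 0.20 log2, beside 0.10 log2 for all such genes. For those of them above background it was 0.14 log2, beside 0.12 log2 for all genes above background that differed. With 1 bud per array no test between buds was possible. Array 2 alone was lowest in 8 of the 15 genes and alone highest in none, and array 1 alone was highest in 7 and alone lowest in none. Over all genes that differed between arrays, array 2 alone was lowest in 21.9% and array 1 alone highest in 25.4%. Over those above background the shares were 26.9% and 34.2%, but 3 of the 15 genes (Nid1, Itga2 and Itgb3) were not above background.

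Markers of another cell type followed a related order. All 12 endothelial markers were lowest on array 2 and 9 were highest on array 3, with means of 6.58, 5.89 and 6.93 log2 on arrays 1, 2 and 3 and summed linear signals of 1408, 748 and 2019. Of these markers 9 were above background, among them Pecam1 at 6.32, 5.86 and 6.62 log2, Cdh5 at 8.22, 5.89 and 8.07, and Tek at 6.69, 5.67 and 7.34. At the 99th percentile 3 of the 12 were above background, beside 35.3% of all genes. At the Krtap and Defb level 0 were, beside 21.1%. Of the 12 ureteric bud markers 11 and 10 were above those levels. Lama4 and Nid1, which vessels also express, were the 2 genes of the list highest on array 3 and lowest on array 2. For Lama4 arrays 1 and 2 were close, at 5.99 and 5.93 log2. Dag1, Itga2, Itga6, Itgb3, Ilk and Lims1 were also alone lowest on array 2, but array 3 alone was not highest for them. Col4a1 and Col4a2 held 1 value on all arrays, which carries no measured spread, so neither can be set beside the order of these markers. Ureteric bud markers were highest on array 1 in 9 of the 10 that differed, with means of 8.79, 8.48 and 8.40 log2, and Lamb1, Lamc1 and Itga3 followed that order. The part of either cell type in these differences was not tested, and fewer cells of a type cannot be told apart from less RNA per cell.

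**Figure D4:**
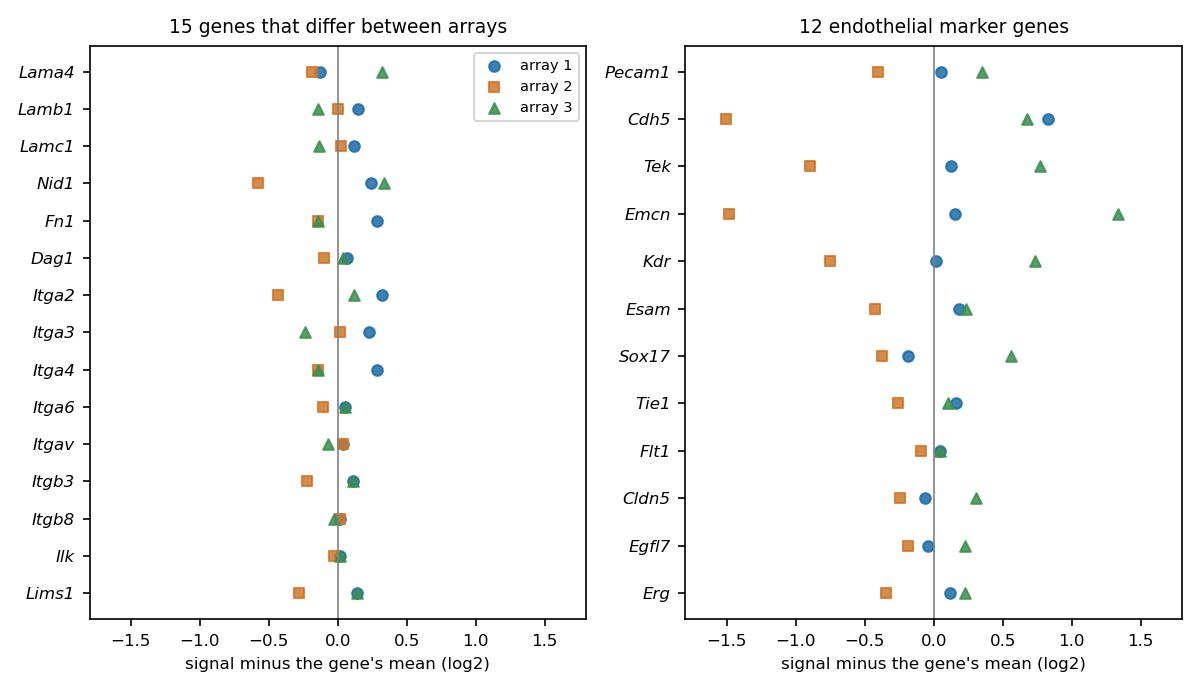
Signal minus the gene's own mean (log2, horizontal axis) on each array for the 15 genes of the list that differed between arrays (left) and for 12 endothelial markers (right), on the same scale. Array 2 lies lowest for all 12 endothelial markers and alone lowest for 8 of the 15 genes.

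The summed linear signal of the 7 measured erythroid markers was 973, 301 and 749 on arrays 1, 2 and 3, so array 2 was low there also. Of them 3 (42.9%) were above background, and 0 at the 99th percentile or the Krtap and Defb level. All 8 markers of stroma held 1 identical value on all arrays, so their summed signal of 341 carries no measured spread. Beside 53.0% of all genes, 3 of the 8 (37.5%) were above background. Those were the fibrillar collagens Col1a1, Col1a2 and Col3a1, while Foxd1, Tcf21, Pdgfra, Pdgfrb and Meox1 were not above it. Leukocyte markers were above background in 3 of 8 (37.5%), with summed signals from 316 to 329, and mesenchyme markers had summed signals from 346 to 367. Stroma and leukocyte markers each gave 2 at the 99th percentile and 0 at the Krtap and Defb level.

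Other genes of the same system were read from lists of gene names, also chosen with earlier results of these data known. Their shares stand beside 53.0% of all genes as reported, 35.3% at the 99th percentile and 21.1% at the Krtap and Defb level. Of 24 measured further basement membrane genes, 17 (70.8%) were above background, with a median of 0.57 log2 above it. The count was 11 at the 99th percentile and 4 at the Krtap and Defb level. The heparan sulfate proteoglycans Hspg2 (perlecan) and Agrn (agrin) stood 1.47 and 1.54 log2 above background, the matricellular gene Sparc 4.52 log2, and Npnt, which encodes the α8β1 ligand nephronectin, 3.02 log2. Of 12 further integrin subunits 3 were above background (25%, median −0.41 log2), namely Itga10, Itga2b and Itgb2l at 0.25, 0.39 and 0.27 log2. The highest of their signals, 5.81 log2 (Itga2b), lay under both stricter levels. This list holds the leukocyte subunits, of which Itgal, Itgam, Itgax and Itgb2 were not above background, and Itga11, at 4.75 log2, was not either.

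Integrin adhesion machinery was above background in 16 of 20 measured genes (80.0%, median 0.81 log2), in 10 at the 99th percentile and in 4 at the Krtap and Defb level. The talin genes Tln1 and Tln2, which activate integrins, stood 1.35 and 0.32 log2 above background. Of the kindlin genes Fermt2 stood 1.90 log2 above it, and Fermt1, the epithelial kindlin, and Fermt3, the blood cell kindlin, were not above background. Parvg and Lims2 were the other genes of this list not above it, at 4.62 and 5.36 log2, while their relatives Parva and Lims1 were.

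Further laminin receptors and their partners gave 9 of 11 above background (81.8%, median 1.26 log2), 7 at the 99th percentile and 4 at the Krtap and Defb level. Bcam, a receptor for the laminin α5 chain, stood 1.78 log2 above background, Cd151, a tetraspanin partner of α3β1, 1.23 log2, and the syndecans Sdc1 and Sdc4 1.26 and 1.69 log2. Plec, which encodes the hemidesmosome linker plectin, and Dmd (dystrophin) were not above background, whereas Utrn, which encodes the dystrophin relative utrophin, stood 1.96 log2 above it. Genes that glycosylate dystroglycan gave 6 of 7 measured (85.7%), 3 and 2 at those stricter levels, with Pomt1, Pomt2 and Pomgnt1 at 0.84, 0.52 and 0.40 log2, Pomgnt2 at 1.09 log2, and Pomk under background at 5.28 log2. Genes for collagen and laminin folding and secretion gave 13 of 15 (86.7%, median 1.57 log2), 11 and 7 at the stricter levels, with the prolyl hydroxylase genes P4ha1 and P4ha2 at 2.20 and 1.06 log2 and P4hb at 3.33 log2. Plod1, a lysyl hydroxylase gene, stood 0.55 log2 above background, and P3h1 and Crtap, partners in prolyl hydroxylation, were not above it.

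**Figure D5:**
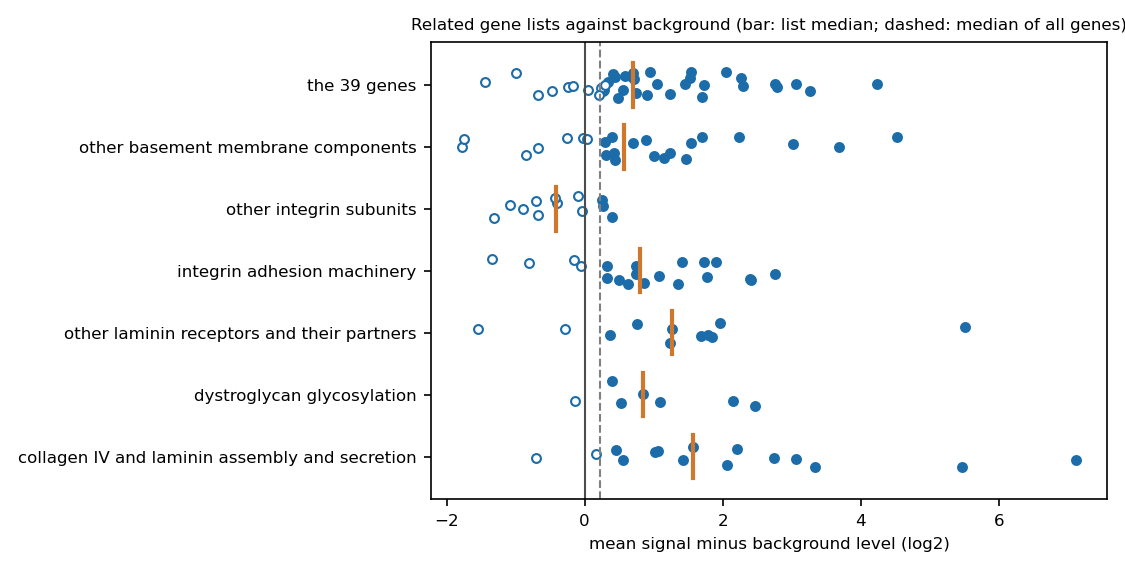
Mean signal minus background level (log2, horizontal axis) of each gene in the list of 39 and in 6 related lists, with filled points above background, open points not above, an orange bar at each list's median and a dashed line at the median of all genes, 0.22 log2. Vertical scatter within a row has no meaning. The further integrin subunits have their median at −0.41 log2, under background, and the other lists have theirs between 0.57 and 1.57 log2.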

How the data were processed

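The authors deposited 1 log2 signal per probe set and array for 35557 probe sets. The base of the logarithm was inferred from the range of values and is not stated. Affymetrix Expression Console made the summaries, per the submitters' processing notes; no source used here gives its version, background correction, normalization or summarization. Values were used as deposited, and values within 1e-06 log2 were counted as identical.

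Genes came from the 21789 probe sets with 1 symbol, averaged per gene. All 39 members matched the RefSeq table (GRCm38.p6) by gene ID. For each of 19938 genes, limma 3.58.1 in R 4.3.3 fitted the mean of signal minus its array's background level, with a one-sided moderated test and Benjamini-Hochberg adjustment over all genes. The prior had 1.71 degrees of freedom. The fit was tested on simulated data of 2 designs: raised genes were mostly recovered where other genes kept their real means and spreads, identical genes included, and far less often where every gene varied and all others lay under background. Raised genes varied between arrays in both designs, so recovery of a gene with identical values was not simulated, and the designs differed in their shifts. Complexes were counted complete when all subunits were called.

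The members and lists were chosen with earlier results of these data known. Named genes were all members, the first measured genes of each other list (at most 4), and the called or uncalled genes of a list where these were 5 or fewer; Itgal, Itgam, Itgax, Itgb2 and Utrn were named after their values were seen. With 3 arrays the precision of each level is low.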

Additional observations from a re-analysis of the deposited data

How the results depend on the processing

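Over 13 alternatives, the count of 29 genes above background ran from 28 to 33 when 1 array was left out (28 without array 1, 33 without array 2). It was 17 at the 99th percentile, 10 at the level set by keratin-associated proteins and beta-defensins (the Krtap and Defb level), and 12 of the 15 tested with identical genes left out. Laminin trimers fell from 8 to 1 at both stricter levels and were 8 to 8 with 1 array left out. Integrin dimers fell from 11 to 5 at the 99th percentile and 2 at the Krtap and Defb level, and were 9 to 14 with 1 array left out. With identical genes left out most complexes had an untested subunit: 1 laminin trimer was complete of 1 that could be tested, 1 integrin dimer of 2, and 0 collagen IV trimers because none could be tested. Complete collagen IV trimers numbered 3 with vomeronasal receptors as background and 3 at the 90th percentile, 2 without a model, and 0 at the Krtap and Defb level, and 1 to 2 with 1 array left out. The fit without array 2 had a prior of 0.91 degrees of freedom and those without array 1 or array 3 pooled the spread of all genes, so they are not alike. The adaptor genes numbered 3 to 3 with 1 array left out, 2 at the Krtap and Defb level and 2, both of those tested, with identical genes left out, and no gene's arrays differed by over 1 log2 with quantile normalization.

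The level itself set the sign of genes near it. At the 90th percentile Lamb3 and Col4a6 rose to 0.14 and 0.22 log2 above the level, and with vomeronasal receptors Lamb3, Col4a6 and Itga7 stood at 0.32, 0.39 and 0.07 log2. At the 99th percentile Lama5, Lamb2, Lamc3, Col4a3, Col4a5 and Nid1 stood at −0.09, −0.05, −0.17, −0.59, −0.36 and −0.42 log2, and Itga1, Itga2, Itgb3, Itgb4, Itgb5 and Itgb8 at −0.39, −0.34, −0.44, −0.31, −0.20 and −0.23 log2. At the Krtap and Defb level Lama4, Lama5, Lamb2 and Lamc3 stood at −0.74, −0.89, −0.86 and −0.97 log2, Col4a2, Col4a3, Col4a4, Col4a5 and Col18a1 at −0.39, −1.40, −0.77, −1.17 and −0.54 log2, and Nid1 and Nid2 at −1.22 and −0.71 log2. Under that background Itga1, Itga2, Itga3, Itga5 and Itga9 stood at −1.19, −1.14, −0.50, −0.73 and −0.22 log2, and Itgb3, Itgb4, Itgb5 and Itgb8 at −1.24, −1.11, −1.0 and −1.03 log2. Quantile normalization changed no gene's call, and the choice of probe set could not, since each gene has 1. Signal over background limits the calls: genes up to 1.54 log2 above the level (Itga4) lost theirs at the Krtap and Defb level. No paired analysis was possible because the samples form 1 group.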
